A study of Mus musculus with 6 samples.

Results

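The genes described here are 37 components of the autophagy machinery, read in the embryonic mouse retina with and without a Cre that deletes Foxp1. They were taken from a fixed list of gene symbols, which includes the endoplasmic reticulum membrane protein gene Vmp1. Each symbol was matched to its Ensembl identifier through the gene names in the authors' deposited comparison table. All 37 were found among the 55487 genes of the count table, and all 37 were among the 17275 genes that passed the filter on low counts.

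Retinas were collected at embryonic day 16.5 from 6 C57BL/6 embryos of 1 litter, with left and right eye of an embryo combined into 1 library of ribosome-depleted total RNA. All 6 animals carried loxP-flanked Foxp1 alleles. The 3 libraries labelled control have the genotype Foxp1 fl/fl, and the 3 libraries labelled cKO (conditional knockout) have Foxp1 fl/fl with Six3-Cre, a Cre recombinase under Six3 regulatory sequence that is active in the developing retina. No Foxp1 wild-type animals and no animals with Cre alone are among these samples, so Cre and loss of Foxp1 cannot be told apart. The study asks how Foxp1, a forkhead transcription factor of early retinal progenitors, shapes gene expression in this tissue.

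Autophagy encloses cytoplasm, organelles or aggregates in a double membrane, the autophagosome, and delivers them to the lysosome for breakdown. A kinase complex around ULK1 starts the process, a class III phosphatidylinositol 3-kinase complex marks the membrane where it begins, and lipid transfer proteins and scramblases supply and spread lipid as that membrane grows. Ubiquitin-like conjugation then couples the Atg8 family (LC3 and GABARAP proteins) to the membrane lipid phosphatidylethanolamine, where cargo receptors bind them. In the retina autophagy is known for its part in differentiation and survival of neurons and, later in life, in photoreceptor and pigment epithelium turnover.

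Total counts were 23707761 to 25714620 per library. Levels are given as CPM, the counts scaled to a common library size by trimmed mean of M values, and per-library values run in the order 1, 2, 3. Every fold change divides the cKO label by the control label and was tested with edgeR's quasi-likelihood method and adjusted over all tested genes. The targeted gene went against the labels. Foxp1 had 1213, 1019 and 1096 counts under the control label, and 1850, 1816 and 1742 counts under the cKO label (log2 fold change 0.65, SE 0.07, edgeR adjusted p = 4.63e-05). For Foxp1 the authors' deposited table gives -0.60. A count over the whole gene also keeps reads from exons that a Cre does not remove, and which exons are removed is not stated in the labels. Whether such reads have a part in the higher Foxp1 counts under the cKO label was not tested. Sex-linked genes matched the labelled sex in 4 libraries and went against it in 2, control 2 and cKO 2. In library order, the labelled sexes were female, female, male for control and female, male, male for cKO. The patterns of the sex-linked genes Xist and Ddx3y were female, male, male under the control label and female, female, male under the cKO label. The patterns of each group thus match the labelled sexes of the other group, library by library. Whether the groups were exchanged was not tested. Groups are therefore called by their labels throughout, and every direction below rests on labels that Foxp1 contradicts.

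Retinal identity was plain in all libraries. The summed level of 8 retinal progenitor markers was 7760 to 8020 CPM in the libraries labelled control and 7760 to 8010 CPM in those labelled cKO. The 7 lens markers summed to 47.3 to 696 CPM against 14.1 to 191 CPM, so lens RNA was present in varying amount and its range overlapped between groups. Summed markers of amacrine and horizontal cells (521 to 553 CPM, labelled control, against 462 to 475 CPM, labelled cKO, 5 genes) and of endothelial cells (328 to 353 CPM against 297 to 306 CPM, 5 genes) did not overlap between the groups. All 5 amacrine and horizontal markers had log2 fold changes below 0, from -0.25 to -0.002. Of these 5, 2 passed an edgeR adjusted p of 0.05, where 0.486% of all tested genes passed towards lower values. Of the 4 endothelial markers tested 2 lay above 0 and 2 below (-0.20 to 0.21), and none passed. The part of these cell types in the differences below was not tested. In bulk tissue, fewer cells of a type and less RNA per cell cannot be told apart.

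The autophagy genes spanned a wide range of levels, and most were steady between animals. Per kilobase of annotated exon, mean levels over the 6 libraries ran from 81.7 CPM per kilobase for Gabarap down to 0.47 for Tfeb, a 172-fold span with a median of 9.52. The top of the order was held by membrane tags and cargo receptors. After Gabarap came Map1lc3a (57.3 ± 2.01 CPM per kilobase, SD, n = 6), Gabarapl1 (41.8 ± 1.40), Sqstm1 (40.9 ± 1.67), Nbr1 (27.4 ± 1.17), Gabarapl2 (26.9 ± 2.53) and Map1lc3b (23.4 ± 1.27). Gabarapl1 and Sqstm1, and likewise Nbr1 and Gabarapl2, are neighbours whose levels differed by less than their spread. At the low end, above Tfeb, stood the protease gene Atg4a (2.09 ± 0.21), the E2-like enzyme gene Atg10 (2.73 ± 0.37) and the receptor gene Optn (2.90 ± 0.23). The length sums the exons of all annotated transcripts of a gene, expressed here or not, so this is not an order of transcript number. In CPM not divided by length, Nbr1 was highest (192.5 under the control label, 183.8 under the cKO label). Map1lc3b (168.6 and 182.9 CPM) then lay above Gabarap (147.2 and 154.0 CPM). The coefficient of variation of a gene within a group ran from 1.095% to 26.6%, highest in Tfeb under the cKO label. Its median was 4.20% for the labelled control and 4.08% for the labelled cKO libraries, against 6.78% and 6.54% over all tested genes. Those genes were not matched for level, so the lower spread is not shown to be a trait of autophagy genes.

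Some of these counts and ranks are also uncertain because other annotated genes hold part of the same sequence. Of the 37 genes, 23 share no 100-base stretch of transcript with another gene. The share is above 10% in 7 of the other 14. It is 34.7% in Atg4a, with the pseudogene Atg4a-ps and another gene elsewhere. In the next 6 it comes wholly or almost wholly from a gene that overlaps the same locus: 30.7% in Becn1 (Cntd1), 27.75% in Atg9a (Gm29253), 18.0% in Gabarapl1 (1700101I11Rik), 14.4% in Uvrag (Gm45187), 13.7% in Sqstm1 (Mrnip) and 10.5% in Atg4d (Kri1). The remaining 7 genes lie between 0.54% and 7.04%.

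**Figure D1:**
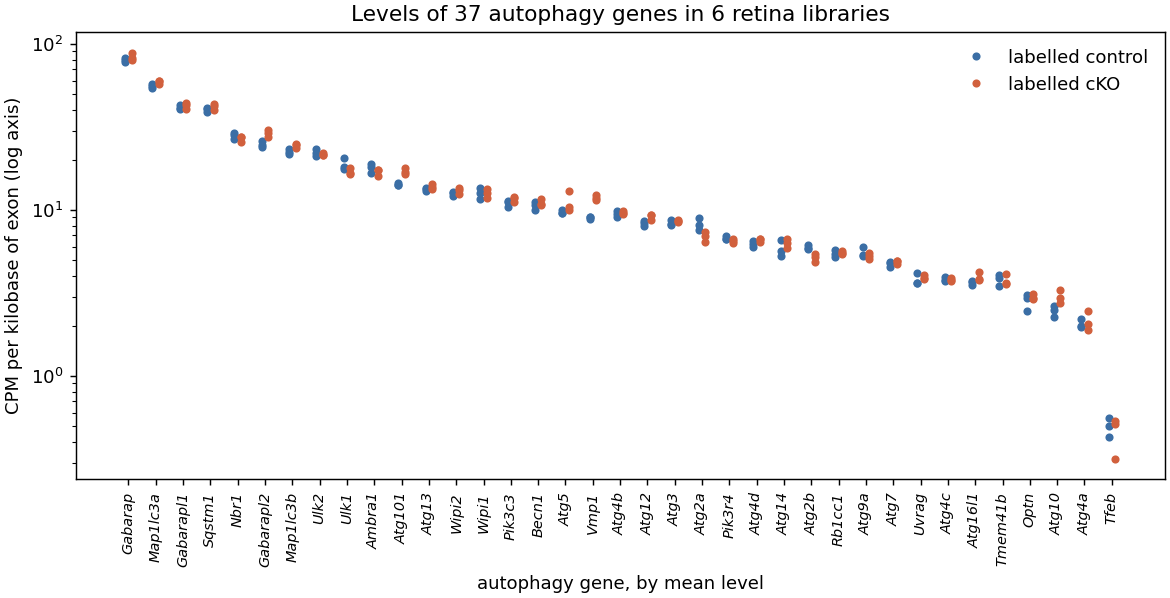
Level of each of the 37 autophagy genes in each library, in CPM per kilobase of exon on a log axis, ordered by mean; blue points are the 3 libraries labelled control and red-orange points the 3 labelled cKO. Gabarap is highest at a mean of 81.7 and Tfeb lowest at 0.47, and for most genes the 2 colours stand side by side at nearly the same height.

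Of the 37 genes, 3 passed an adjusted p of 0.05. Vmp1 and Gabarapl2 were higher and Atg2b was lower in the libraries labelled cKO. These are 8.11% of the 37, where 0.781% of all tested genes passed (0.295% higher, 0.486% lower). Among tested genes with a mean CPM within the range of the autophagy genes the share was 0.928%. The autophagy genes were chosen with earlier results of these data known, so their share is a description and not a test. Run on the same counts, DESeq2 gave an adjusted p to 23 of the 37 and called 4 of these, the same 3 and Atg2a (17.4%, against 9.18% of all genes with one). At an unadjusted p of 0.05, 9 of the 37 passed (24.3%, against 16.5% of all tested genes). The groups did not overlap for 11 of the 37 (29.7%, against 20.1%), in 9 towards higher values (24.3%, against 10.8%) and in 2 towards lower values (5.41%, against 9.29%). Signs leaned upwards, with 26 of 37 log2 fold changes above 0 (70.3%, against 50.1%) and a median of 0.05, beside 0.00 for all tested genes. The direction rests on the labels: with the labels exchanged, 11 of 37 (29.7%, against 49.9%) would lie above 0, and the 9 genes without overlap would be lower. Apart from Vmp1 all of these differences were small, between -0.24 and 0.29 on the log2 scale.

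**Figure D2:**
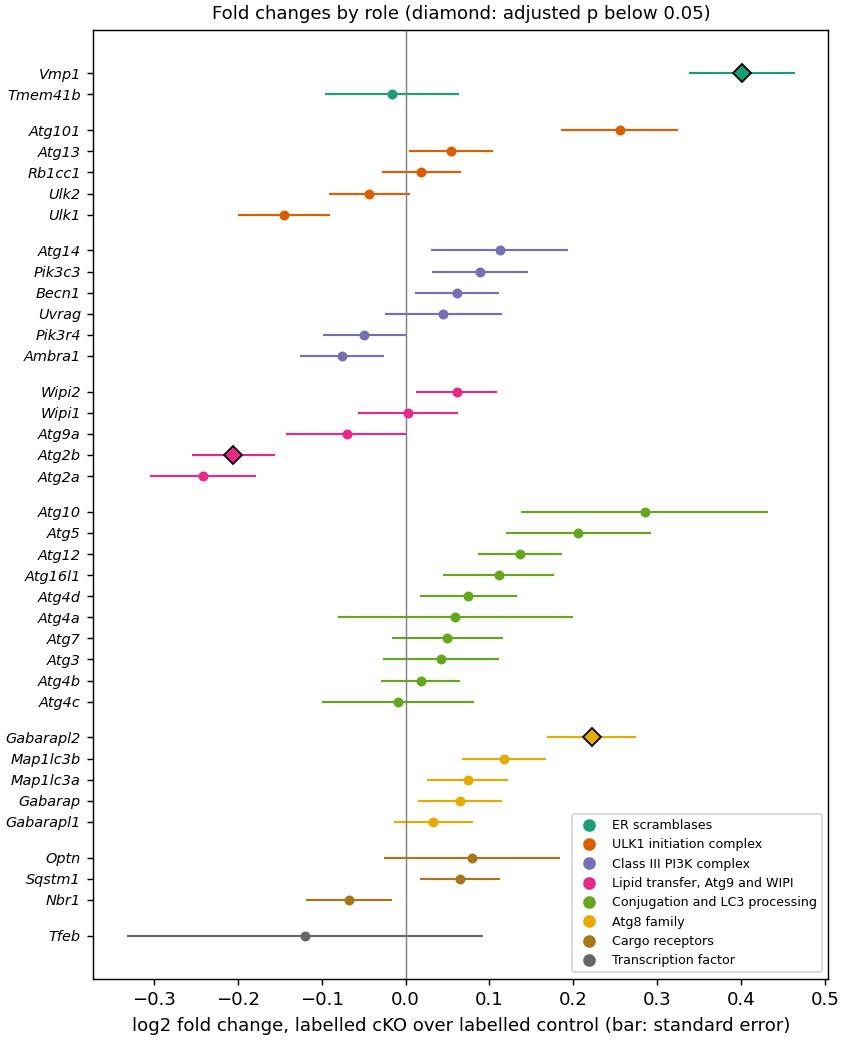
Log2 fold change of each autophagy gene, cKO label over control label, with its standard error, grouped and coloured by role. The diamonds of Vmp1 (0.40), Gabarapl2 (0.22) and Atg2b (-0.21) passed an edgeR adjusted p of 0.05 over all tested genes, and all conjugation genes but Atg4c lie to the right of 0.

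Vmp1 was the autophagy gene with the largest difference. Its protein is a multi-spanning scramblase of the endoplasmic reticulum that moves phospholipids between membrane leaflets and is required for autophagosomes to close off from that membrane. The gene (ENSMUSG00000018171) lies on chromosome 11, 86583865 to 86683836, minus strand, in the mm10 build, with 3862 bases of exon. Counts were 815, 868 and 825 under the control label and 1130, 1145 and 1148 under the cKO label. In CPM these are 34.1, 34.9 and 34.7 against 44.2, 47.6 and 45.3. The 3 libraries labelled cKO all lie above the 3 labelled control, with a gap much wider than the spread inside either group. Mean levels were 34.6 ± 0.46 against 45.7 ± 1.72 CPM (SD, n = 3 each) (log2 fold change 0.40, SE 0.06, edgeR adjusted p = 0.00273). The call stayed with every single library left out, with log2 fold changes of 0.37 to 0.42. It was lost when the 2 libraries at odds with their labelled sex were dropped, a fit of 2 libraries against 2, although the value was then 0.38 (edgeR adjusted p = 0.279, where the other 16 alternatives gave adjusted p between 2.05e-06 and 0.0391). None of the 100-base stretches in annotated Vmp1 transcripts occurs in another annotated gene, so no copy of that length was found. The search could not find shorter genes such as Mir21a, which spans 92 bases inside Vmp1 on the same strand.

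Tmem41b, the related scramblase gene that acts beside Vmp1 at the endoplasmic reticulum, gave no call. Its levels were 22.7, 23.7 and 20.4 CPM under the control label and 21.2, 21.0 and 23.9 CPM under the cKO label. The groups overlapped fully, with a log2 fold change of -0.02 (SE 0.08, edgeR adjusted p = 0.953). A difference in response between the 2 scramblase genes was not tested. Of the Tmem41b transcript sequence 7.04% of 100-base stretches also occur in the annotated gene Gm6223 elsewhere in the genome.

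Around Vmp1 no neighbouring gene was called by edgeR, and 1, Cltc, passes in the authors' deposited table. Vmp1 is paired head to head with Ptrh2, a mitochondrial peptidyl-tRNA hydrolase gene on the opposite strand, and only 148 bases separate their annotated starts. That stretch is shown whole because both genes are transcribed away from it. It is chr11:86683837-86683984 of GRCm38.p6 (RefSeq), read 5′ to 3′ on the minus strand, towards Vmp1. Capitals mark CCGGAAGT, the core that ETS-family transcription factors recognise.
Vmp1-Ptrh2 interval: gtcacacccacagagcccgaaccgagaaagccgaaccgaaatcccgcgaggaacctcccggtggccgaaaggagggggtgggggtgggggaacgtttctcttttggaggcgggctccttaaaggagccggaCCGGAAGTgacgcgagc

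Ptrh2 had 738, 738 and 702 counts under the control label and 809, 854 and 808 under the cKO label. Its groups did not overlap either, at 30.03 ± 0.70 against 32.99 ± 2.15 CPM (SD, n = 3 each), but the difference did not pass (log2 fold change 0.14, SE 0.07, edgeR adjusted p = 0.338). Beyond it lies Cltc, the clathrin heavy chain gene, at -0.17 (edgeR adjusted p = 0.155, DESeq2 adjusted p = 0.0522 on the same counts), which the authors' deposited table lists at 0.21 with an adjusted p of 0.0182. Further off is Dhx40, at 0.04 (edgeR adjusted p = 0.843). On the other side are the tubulin gene Tubd1 at -0.01 (edgeR adjusted p = 0.985), the S6 kinase gene Rps6kb1 at 0.04 (edgeR adjusted p = 0.791) and Rnft1 at 0.16 (edgeR adjusted p = 0.437). Inside Vmp1, the pseudogene Gm11478 had mean levels of 3.51 (control label) and 3.95 CPM (cKO label) (edgeR adjusted p = 0.661), and the miR-21 precursor gene Mir21a had 0 counts in all 6 libraries. Mir21a is 92 bases long and lies within Vmp1 on the same strand, so this 0 was not taken as a measure of its expression.

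RefSeq promoter windows of 300 bases, 250 before to 50 after a RefSeq start of a gene (GRCm38.p6), were found for 31 of the 37 genes, in 38 windows. The forkhead core GTAAACA, searched on both strands, is in 0 of the 38 windows and in 3.65% of all 32851 windows of the table. The E-box CACGTG, core of the element that the lysosomal regulator TFEB binds, is in 4 of the 38 windows (10.5%, against 7.15% of all windows), those of Atg3, Atg5, Atg7 and Atg14. Only in Atg3 does it lie in the longer form TCACGTGA, which 0.974% of all windows hold and which contains CACGTG. The stretches of Atg7 and Atg14 belong to starts inside the annotated gene, which begins at 114643097 for Atg7 and at 47570649 for Atg14 (minus strand). The 30 bases around each E-box are shown with the motif in capitals.
Atg3 (chr16:45158746-45158775, plus): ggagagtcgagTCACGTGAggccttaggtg
Atg5 (chr10:44268313-44268342, plus): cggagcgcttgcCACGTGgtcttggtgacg
Atg7 (chr6:114670952-114670981, plus): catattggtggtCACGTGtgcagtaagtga
Atg14 (chr14:47568418-47568447, minus): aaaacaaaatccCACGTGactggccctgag
None of these 4 genes passed the test, with log2 fold changes of 0.04, 0.21, 0.05 and 0.11 in that order.

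CCGGAAGT, searched on both strands and chosen only after the sequences had been seen, is in 4 of the 38 windows (10.5%, against 3.89% of all windows). They belong to Vmp1, Gabarapl2, Atg101 and Tmem41b, with log2 fold changes of 0.40, 0.22, 0.25 and -0.02. The Tmem41b stretch lies wholly inside the annotated gene, which begins at 109986929 (minus strand), while the others span the annotated start of their gene. The motif was picked with these data known, so no link between motif and fold change can be read from the 4 genes.
Vmp1 (chr11:86683835-86683864, minus): aaggagccggaCCGGAAGTgacgcgagcga
Gabarapl2 (chr8:111940694-111940723, plus): ggctccggcagCCGGAAGTcccgcctgtgg
Atg101 (chr15:101284264-101284293, plus): gaacgggcaaaACTTCCGGcccgcgcgccg
Tmem41b (chr7:109986181-109986210, minus): ggtgaggtggtcgtgCCGGAAGTagttgtg
A match of letters is a description of the window and says nothing of binding.

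Among the 5 genes of the ULK1 initiation complex none passed, and log2 fold changes lay on both sides of 0. Atg101, which stabilises the Atg13 subunit, was at 22.6, 23.0 and 22.6 CPM under the control label and 26.1, 28.3 and 27.0 CPM under the cKO label. The groups did not overlap, and the log2 fold change was 0.25 (SE 0.07), with an edgeR adjusted p of 0.0762 (0.0313 to 0.714 over the alternatives). The kinase gene Ulk1 was at -0.15 (edgeR adjusted p = 0.185), with overlapping groups. Its paralogue Ulk2, the member of the complex with the highest level per kilobase, was at 132.0, 139.2 and 126.7 CPM against 127.4, 131.5 and 127.4 CPM (log2 fold change -0.04, SE 0.05). The scaffold gene Rb1cc1 (0.02) and the regulatory subunit gene Atg13 (0.05) lay close to 0. Summed exon length is 1597 bases in Atg101 and 6488 in Ulk1, a point taken up below.

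The class III phosphatidylinositol 3-kinase complex gave no call in its 6 genes, and no gene of it separated the groups. Log2 fold changes ran from -0.08 for Ambra1, a scaffold that binds Beclin 1, to 0.11 for Atg14, the subunit that directs the complex to autophagosomes. Ambra1 was at 114.9, 110.8 and 102.4 CPM under the control label and 106.3, 98.1 and 106.8 CPM under the cKO label. Atg14 was at 22.6, 28.3 and 24.5 CPM against 25.4, 28.9 and 27.2 CPM. Both pairs of groups overlapped. The lipid kinase gene Pik3c3 (0.09), Becn1 (0.06), Uvrag (0.05), which marks the endosomal form of the complex, and the regulatory kinase gene Pik3r4 (-0.05) lay between.

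Among the 5 genes of lipid transfer, Atg9 and WIPI proteins, 1 passed, and it fell. Atg2a and Atg2b encode the 2 rod-shaped proteins that carry lipid from the endoplasmic reticulum to the growing autophagosome. Atg2b (ENSMUSG00000041341, chromosome 12, 105616136 to 105685211, minus strand, mm10) was at 82.2, 79.2 and 78.3 CPM under the control label and 72.5, 65.4 and 69.9 CPM under the cKO label. All 3 labelled cKO values lie below all 3 labelled control values. The means were 69.3 ± 3.58 against 79.9 ± 2.02 CPM (SD, n = 3 each), a log2 fold change of -0.21 (SE 0.05, edgeR adjusted p = 0.0487). That p is just inside the threshold, and 11 of 17 alternatives put it outside, with a range of 0.00739 to 0.714. The call was lost without control 1 (adjusted p = 0.173), control 2 (0.144), cKO 2 (0.364) or cKO 3 (0.155).

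Atg2a had the same shape without passing. Its levels were 68.2, 62.6 and 57.7 CPM against 56.6, 49.3 and 53.6 CPM, in the same library order, and the groups did not overlap, by a narrow margin. The log2 fold change was -0.24 (SE 0.06, edgeR adjusted p = 0.0686, 0.00377 to 0.714 over the alternatives). Of the other 3 genes in this role group, the lipid scramblase gene Atg9a was at -0.07, and the phosphoinositide readers Wipi1 and Wipi2 were at 0.00 and 0.06. Wipi2, the highest of the role group per kilobase, was at 127.0, 133.4 and 134.5 CPM against 131.8, 141.8 and 138.4 CPM, with overlap. The 5′ end of Atg2b overlaps Gskip on the other strand, which holds 284 of the 13807 distinct 100-base stretches of Atg2b. Gskip, chosen after its values were seen, was at 0.21 on the log2 scale (edgeR adjusted p = 0.266).

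**Figure D3:**
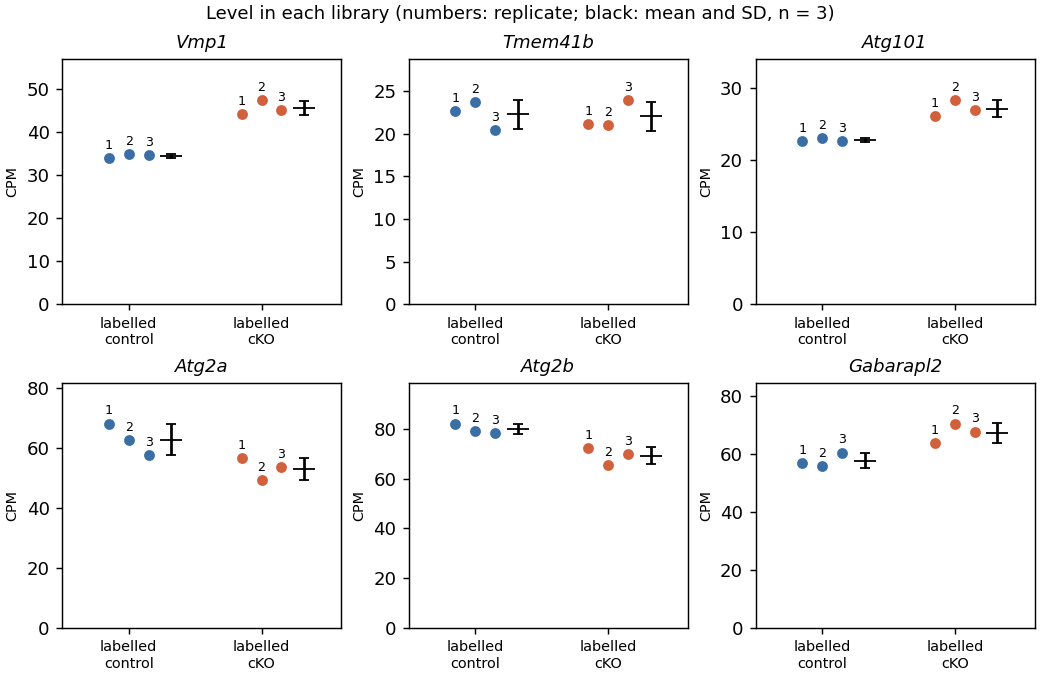
CPM of 6 autophagy genes in each library, with points numbered by replicate and the mean and SD (n = 3) in black. Vmp1, Atg101 and Gabarapl2 are higher and Atg2a and Atg2b lower in every library labelled cKO than in any labelled control, while Tmem41b overlaps; Atg101 and Atg2a did not pass the test.

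In the conjugation and LC3 processing group 9 of 10 log2 fold changes were above 0, where 50.1% of all tested genes were, and none passed. Atg7 is the E1-like enzyme that activates Atg12 and the Atg8 proteins, Atg3 and Atg10 are the E2-like enzymes, Atg12 is joined to Atg5, and Atg16l1 brings that pair to the membrane. The groups did not overlap for Atg5, Atg10, Atg12 and Atg16l1, all higher in the libraries labelled cKO. Over all tested genes 10.8% did not overlap in that direction. Atg12 was at 61.5, 63.8 and 66.2 CPM under the control label and 67.0, 71.4 and 72.0 CPM under the cKO label (log2 fold change 0.14, SE 0.05, edgeR adjusted p = 0.167). Atg5, its partner and the member of this role group with the highest level per kilobase, was at 22.4, 22.4 and 23.3 CPM against 23.5, 30.5 and 24.6 CPM (0.21, SE 0.09, edgeR adjusted p = 0.230). Here 1 library, cKO 2, stands well above the rest, and without it the log2 fold change was 0.08.

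Atg16l1 was at 35.4, 35.8 and 33.9 CPM against 36.2, 36.9 and 40.4 CPM (0.11, SE 0.07, edgeR adjusted p = 0.426). Atg10 had the largest log2 fold change of the role group, 0.28 (SE 0.15, edgeR adjusted p = 0.342), on low levels of 4.26, 3.86 and 4.55 CPM against 4.69, 5.07 and 5.68 CPM. The separation in Atg16l1 and Atg10 was thus narrow, below the spread of the labelled cKO libraries. Activating enzyme Atg7 (0.05) and conjugating enzyme Atg3 (0.04) were close to 0, as were the genes of the Atg4 proteases that prime and recycle LC3, from -0.01 for Atg4c to 0.08 for Atg4d.

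All 5 Atg8-family genes had log2 fold changes above 0 and 1 passed. Over all tested genes 50.1% lay above 0 and 0.781% passed. The family is the membrane-bound tag of the autophagosome, with LC3 and GABARAP branches that act at different steps of its growth and closure. Gabarapl2 (ENSMUSG00000031950, chromosome 8, 111940703 to 111953612, mm10) was at 57.0, 55.7 and 60.5 CPM under the control label and 63.7, 70.5 and 67.7 CPM under the cKO label. No labelled control library reached the lowest labelled cKO library. The means were 67.3 ± 3.42 against 57.7 ± 2.47 CPM (SD, n = 3 each), a log2 fold change of 0.22 (SE 0.05, edgeR adjusted p = 0.0487). As with Atg2b the p lies just inside the threshold, 11 of 17 alternatives put it outside, and it ranged from 0.00672 to 0.714. The call was lost without control 1 (adjusted p = 0.144), control 2 (0.182), cKO 2 (0.364) or cKO 3 (0.159). Processed copies of Gabarapl2 elsewhere in the genome hold 6.80% of its 100-base stretches, so part of its count could be split.

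The other 4 Atg8-family genes did not pass. Map1lc3b, which encodes the LC3B used as the standard marker of autophagosomes, was at 162.4, 174.9 and 168.3 CPM under the control label and 176.3, 188.1 and 184.2 CPM under the cKO label (log2 fold change 0.12, SE 0.05, edgeR adjusted p = 0.235). Map1lc3a was at 64.2, 67.8 and 65.7 CPM against 69.9, 67.9 and 70.3 CPM (0.07, SE 0.05, edgeR adjusted p = 0.472). Neither gene's groups overlapped, but for both the gap between the nearest libraries was below the spread within either group. Gabarap, the autophagy gene with the highest level per kilobase of annotated exon, was at 146.6, 143.5 and 151.6 CPM against 147.8, 163.1 and 151.1 CPM (0.06, SE 0.05). Gabarapl1 was at 82.0, 81.5 and 86.0 CPM against 81.6, 88.0 and 85.8 CPM (0.03, SE 0.05). The groups of these last 2 genes overlapped. With the length trend described below removed, the signs of Map1lc3a (-0.01), Gabarap (0.00) and Gabarapl1 (-0.03) were no longer upward.

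The 3 cargo receptor genes and Tfeb gave no call. Sqstm1, which encodes the ubiquitin-binding receptor p62 that is itself degraded with its cargo, was at 136.7, 136.4 and 129.8 CPM under the control label and 140.9, 146.2 and 134.4 CPM under the cKO label (log2 fold change 0.06, SE 0.05, edgeR adjusted p = 0.552). The related receptor gene Nbr1 was at -0.07. Optn, which encodes the receptor optineurin, was at 9.24, 11.5 and 11.1 CPM against 10.95, 11.63 and 11.00 CPM (0.08, SE 0.10). Tfeb, the transcription factor that drives lysosomal and autophagy genes, was sparse, at 3.18, 2.42 and 2.82 CPM against 2.89, 1.79 and 3.04 CPM, with overlapping groups. Its log2 fold change of -0.12 had an SE of 0.21, the widest of the 37, on 43 to 77 counts per library, so its value is the least precise of the set.

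Fold changes of the autophagy genes varied with their length. Spearman's rho between summed exon length and log2 fold change was -0.40 over the 37 genes, which share libraries and are no replicates of each other, beside -0.27 over the 17251 tested genes with a length. Of the 13 genes no longer than the median tested gene (3922 bases), 12 had a log2 fold change above 0. Of the 24 longer genes, 14 did. With each library's length trend removed, the correlation over the 37 genes was -0.02, and 24 of 37 log2 fold changes lay above 0. A correlation near 0 is largely built into that removal, so it is no separate result. A group difference that follows length is removed along with the trend.

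Vmp1 is 3862 bases long, near the median, and it moved from 0.40 to 0.38 (edgeR adjusted p = 0.00398), alone among the 37 in passing that fit, in which 0.22% of all tested genes passed. Atg2b, at 13456 bases the second longest of the set after Rb1cc1, shrank from -0.21 to -0.11 (edgeR adjusted p = 0.324), and Gabarapl2, at 2325 bases, went from 0.22 to 0.17 (edgeR adjusted p = 0.138). Atg2a (-0.24 to -0.20), Atg101 (0.25 to 0.18) and Atg5 (0.21 to 0.15) kept their direction. Map1lc3b (7517 bases) went from 0.12 to 0.16 and Atg12 (7711 bases) from 0.14 to 0.18.

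**Figure D4:**
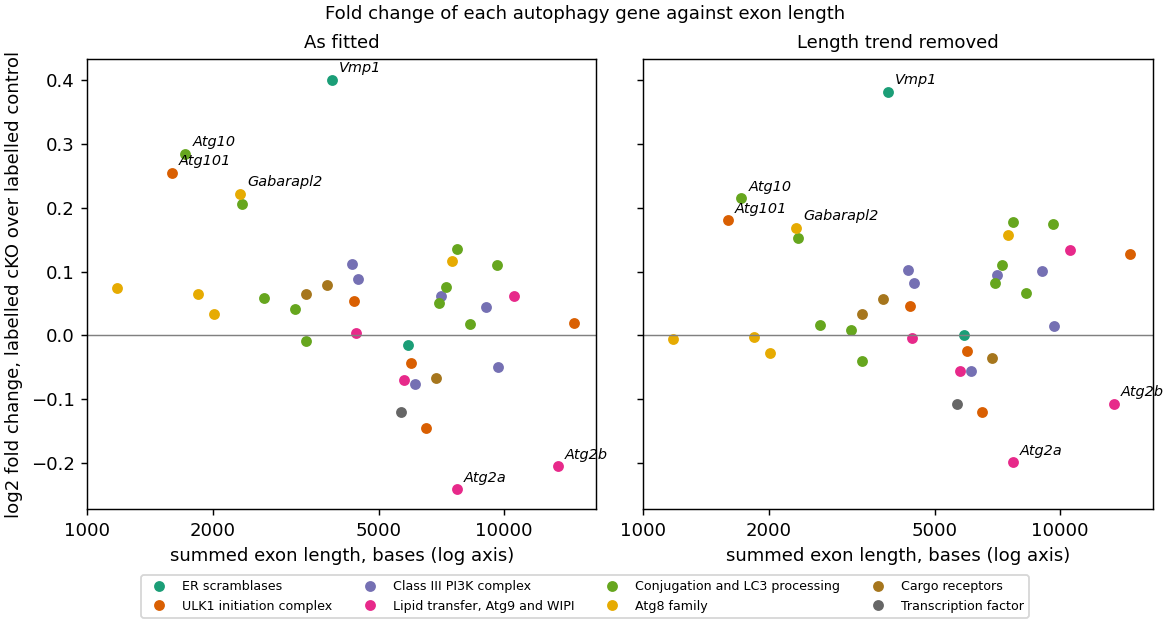
Log2 fold change of each autophagy gene, libraries labelled cKO over labelled control, against summed exon length on a log axis, as fitted (left) and with each library's length trend removed (right); colours mark roles. Vmp1 stays apart at 0.40 and 0.38, while Atg2b moves from -0.21 to -0.11. The Spearman correlation over the 37 genes goes from -0.40 to -0.02, a fall that is largely built into the removal.

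In the wider pathway no gene was called by edgeR, while 4 were by DESeq2 on the same counts and 5 pass in the authors' deposited table. Of 139 further genes of autophagy, lysosome and nutrient signalling, 135 were tested and 0 passed by edgeR's adjusted p (28 at an unadjusted p of 0.05, where 16.5% of all tested genes stood at that level), with 76 log2 fold changes above 0, 59 below and a median of 0.01. DESeq2 gave 86 of them an adjusted p and called Foxo3, Atp6v0a1, Npc1 and Phb2 (4.65%, against 9.18% of all genes with one). The authors' deposited table gives 100 an adjusted p, and these 4 and Lamtor5 pass (5%, against 8.97%). The forkhead factor gene Foxo3 was at -0.22 (edgeR adjusted p = 0.084), the proton pump subunit gene Atp6v0a1 at -0.18 (0.0781), the lysosomal cholesterol exporter gene Npc1 at -0.22 (0.0592) and the prohibitin gene Phb2, a mitophagy receptor, at 0.16 (0.0892). They are named because another tool called them, after their values were seen. The 36 lysosomal and TFEB target genes had 21 above 0 and 15 below (median 0.01). In that list Galns, which degrades sulphated glycosaminoglycans, was at 6.42 CPM in the libraries labelled cKO against 8.55 CPM in those labelled control (log2 fold change -0.42, SE 0.13, edgeR adjusted p = 0.100). The 33 mTORC1 and AMPK genes, which govern when autophagy starts, had 18 above 0 and 15 below (median 0.02). In it Lamtor5, a subunit of the complex that anchors mTORC1 to the lysosome, was at 31.98 CPM in the libraries labelled cKO against 25.8 CPM (0.31, SE 0.08, edgeR adjusted p = 0.0613).

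The 19 selective autophagy receptor genes had 14 above 0 and 5 below (median 0.03), with the endoplasmic reticulum receptor gene Retreg1 at 0.24 (edgeR adjusted p = 0.299). The 16 fusion genes split 9 and 7 (median 0.00), with the lysosomal channel gene Tmem175 at 0.17 (edgeR adjusted p = 0.365). Further core autophagy genes split 8 and 8 (median 0.00, 16 tested of 18), with Atg9b at 0.34, with 1.74 CPM under the control and 2.20 CPM under the cKO label (edgeR adjusted p = 0.533). Genes of the DedA family and endoplasmic reticulum partners of Vmp1 split 5 and 5 (median 0.00, 10 tested of 11), with the lipid enzyme gene Cds1 at 0.26 (edgeR adjusted p = 0.422). Of the other MiT and FoxO factors 4 of 5 tested lay below 0 (median -0.18), with Mitf at -0.31 (edgeR adjusted p = 0.536). Each gene named here had the largest log2 fold change of its list in either direction.

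The authors' deposited table carries the opposite sign for 36 of the 37 autophagy genes, all but Tmem41b, which is near 0 in both. In that table an adjusted p is given for 27 of the 37, and 5 of these pass 0.05 (18.5%, against 8.97% of all its genes with one). The authors' deposited table lists Vmp1 at a log2 fold change of -0.40 (DESeq2 adjusted p = 0.000454), Gabarapl2 at -0.23 (0.0406), Atg2a at 0.27 (0.0282), Atg2b at 0.21 (0.0386) and Ulk1 at 0.19 (0.040). Sizes in the authors' deposited table thus resemble those from the counts, and the direction for cKO against control is reversed.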

How the data were processed

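Ribosome-depleted total RNA of 6 retina libraries was sequenced. The authors deposited whole-number counts per Ensembl gene and 1 comparison table with a mean signal (counts divided by size factors), a log2 fold change and its error, a test score and p-values. The submitters' processing notes name cutadapt 2.8, STAR 2.7.6a, featureCounts 1.5.1, DESeq2 1.32.0 and the mm10 build. No source used here gives the strand setting of the counting, and without it reads of overlapping genes on opposite strands cannot be told apart. The labels give the libraries as separate embryos of 1 litter, so p-values measure the spread between these embryos. No 2 libraries of a group agreed within sampling noise.

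Counts were fitted in R 4.3.3 with edgeR 4.0.16 (filterByExpr, trimmed mean of M values, robust quasi-likelihood, groups from the labels, biological coefficient of variation 8.37%), with Benjamini-Hochberg adjustment over all 17275 tested genes and a threshold of 0.05. The standard error is the log2 fold change divided by the square root of the F statistic. Levels per kilobase use summed exon length from GENCODE M21 (GRCm38, the same assembly as mm10). The scripts were tested on simulated counts. Alternatives were 2 other normalizations, 2 other filters, no robust estimation, DESeq2 1.42.0, limma-voom (limma 3.58.1), labelled sex as covariate, a replicate block, leaving out each library, leaving out the 2 libraries that go against their labelled sex, and removal of each library's trend with exon length (lowess, span 0.3). Depth was 23707761 to 25714620 counts.

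The genes and lists were chosen with earlier results of these data known. Values in every library are given for genes past the threshold, both scramblase genes, the Atg8 family, genes whose groups do not overlap, and the highest and the most different gene of each role group. Outside the set, values are given for Foxp1, the most different gene of each further list, and annotated genes within 100 kb of Vmp1. Gskip, Foxo3, Atp6v0a1, Npc1 and Phb2 lie outside this rule and were added after their values were seen.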

Additional observations from a re-analysis of the deposited data

How the results depend on the processing

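Directions rest on labels that Foxp1 contradicts, and 3 libraries per group limit every call. The number of genes called over the whole table (135) was 742 with no filter on low counts, 83 with a filter at 1 CPM in 3 libraries, 10 without robust estimation, 561 with DESeq2, 13 with limma-voom, 9 without the 2 libraries that go against their labelled sex and 38 with the length trend removed. It was 19 to 778 with 1 library left out: 34, 21 and 778 without control 1, 2 and 3, and 361, 19 and 27 without cKO 1, 2 and 3. Of the autophagy genes 3 were called, but 1 with upper quartile normalization, without robust estimation, with limma-voom, with labelled sex as covariate or with the length trend removed, 0 without the 2 doubted libraries (a fit of 2 against 2), and 1 to 4 with 1 library left out. The labelled sex used as covariate went against the sex-linked genes in control 2 and cKO 2, so that fit is not a correction for sex. The cause of these shifts was not tested.

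Vmp1 kept its direction in all 17 alternatives, at 0.37 to 0.42, and its call in 16; without the 2 doubted libraries it was 0.38 (edgeR adjusted p = 0.279). Of the 37 genes 24 kept 1 direction in all 17 alternatives. Among the genes given in every library, these changed sign. With the length trend removed Gabarap was at -0.002, Gabarapl1 at -0.028, Map1lc3a at -0.006 and Tmem41b at 0.001. Without the doubted libraries Gabarapl1 was at -0.005 and Tmem41b at 0.066. With 1 library left out, Optn ran from -0.010 (without control 1) to 0.141 and Tfeb from -0.252 to 0.082 (without cKO 2). Tmem41b was at 0.002 with labelled sex as covariate and ran from -0.077 to 0.032 with 1 library left out, above 0 without control 2 (0.032), cKO 1 (0.013) or cKO 2 (0.018).

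With the replicate number as a replicate block, 1065 of all 17275 tested genes and 6 of the 37 autophagy genes were called. Without the block these counts were 135 and 3. Deviations of same-numbered libraries correlated at 0.085, -0.05 and 0.20, and 3 of 6 libraries correlated best with their own number, so the numbers were not taken to pair the libraries.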
